A study of Bos taurus with 24 samples.

Results

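The genes described here encode parts and substrate receptors of cullin-RING ubiquitin ligases, and were taken as every row of the expression table whose symbol begins with CUL and a digit, SKP1 or SKP2, FBXW, FBXL, FBXO, COPS, KLHL, ASB and a digit, or DCAF. There were 107 such genes among the 11306 listed. Expression was measured in 24 RNA-seq libraries of bovine oocytes, 6 in each of 4 groups: germinal vesicle (GV) oocytes of May (spring), GV oocytes of July (summer), metaphase II (MII) oocytes of May and MII oocytes of July. GV oocytes are immature and arrested in the first meiotic prophase, and the MII oocytes had completed in vitro maturation. The cows were Angus-based crossbred beef animals that were neither pregnant nor lactating, and all were sedated and given an epidural for the collection of oocytes with an ultrasound probe through the vagina. According to the methods, the 4 oocytes pooled for a library came from a single cow, whereas the labels speak of single cells. The herd was sampled in both seasons and part of each cow's oocytes was matured, so libraries of different groups may share a cow, but no label links them.

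A cullin is a scaffold that holds a RING protein and its ubiquitin-charged partner at one end and an exchangeable substrate receptor at the other. CUL1 takes up F-box proteins (FBXW, FBXL and FBXO) through the linker SKP1, CUL3 takes up BTB proteins such as the KLHL family, CUL4 takes up DCAF proteins through DDB1, and CUL2 and CUL5 take up SOCS-box proteins such as the ASB family through the elongins. Attachment of NEDD8 switches a cullin on, and the COP9 signalosome, built from GPS1 and the COPS proteins, takes NEDD8 off again. In oocytes these ligases and the anaphase-promoting complex, a related ligase, are known for removing cell cycle regulators in meiosis, and much of the change in transcript levels during maturation is loss or polyadenylation of stored mRNA, since transcription is largely silent.

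Values were FPKM, fragments scaled to the length of a gene's exons and to the size of the library, so they compare genes per length and libraries by share; an altered amount of a transcript per oocyte and an altered share of the library cannot be told apart. Each library summed to the same total, and the lowest listed value, 0.01, stands for a gene with no reads. Oocyte markers were abundant throughout as a sum: 12 of 16 were listed, none stayed at or under 0.1, and their summed FPKM ranged from 582 to 1869. Single ones were low, such as DDX4 (group medians 0.129 to 0.242) and KIT (0.250 to 0.443). Cumulus cell markers (18 of 20 listed, 3 never over 0.1) summed to 38.1 to 588 in spring GV, 34.0 to 124 in summer GV, 35.0 to 162 in spring MII and 27.1 to 85.3 in summer MII libraries, and the 3 libraries over 124 were spring GV replicates 6 (588) and 3 (199) and spring MII replicate 6 (162). Leukocyte markers (4 of 5 listed, 1 never over 0.1) summed to at most 1.68. The spacing of low values gave an estimate of each library's depth relative to spring GV replicate 1, not compared with read numbers. By it spring GV replicate 6 (0.0565), spring MII replicate 6 (0.149) and summer GV replicate 2 (0.393) were shallow. Summer GV replicates 3 (2.19) and 5 (6.51) were deep, and the others lay between 0.542 and 1.06. Between 317 and 3148 genes stood at 0.01 in a library, with medians of 1063 and 984 in GV and 1524 and 1804.5 in MII oocytes of spring and summer. Whether depth or cumulus RNA had a part in the results below was not tested beyond the values given without the shallow libraries.

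The components were spread over 4 orders of magnitude, and a handful carried most of the signal. Of the 107 genes, 37 had a mean over all libraries of at least 1 FPKM, as did 3665 of all 11306, and the median of the means was 0.281 FPKM, against 0.296 for all listed genes. The 17 that never exceeded 0.1 FPKM were not tested: ASB4, ASB5, ASB7, ASB9, ASB18, FBXL2, FBXL16, FBXO2, FBXO11, FBXO16, FBXO17, FBXO28, FBXW8, KLHL2, KLHL13, KLHL14 and KLHL29. That left 90, made up of 3 of 3 cullins, 2 of 2 SKP genes, 6 of 7 FBXW, 10 of 12 FBXL, 24 of 29 FBXO, 9 of 9 COPS, 21 of 25 KLHL, 6 of 11 ASB and 9 of 9 DCAF. CUL4A, CUL4B, CUL5, CUL7, CUL9, FBXO43, FBXW11, DCAF1 and DCAF13 fit the symbol rule but had no row under those symbols, so they were not analysed here. Of 148 protein-coding RefSeq symbols that fit the rule, 105 were listed.

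**Figure D1:**
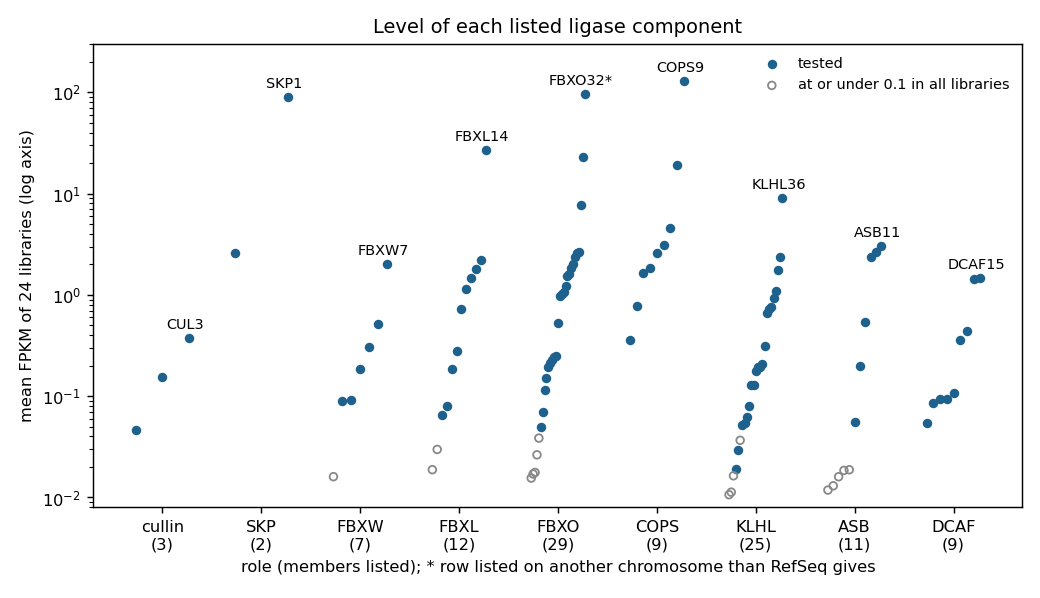
Mean FPKM over the 24 libraries of each of the 107 genes (log axis), arranged by role and by level within a role, with the highest gene of each role named. Filled points are the 90 tested genes and open points the 17 that never exceeded 0.1 FPKM. COPS9, SKP1 and the row named FBXO32 stand highest, and the 3 cullins all lie below 1 FPKM.

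The scaffolds that were listed were low. CUL3 averaged 0.372 FPKM, CUL1 0.155 and CUL2 0.0469, whereas SKP1, the linker of the CUL1 ligases, averaged 89.8. COPS9, the smallest subunit of the COP9 signalosome, was the most abundant at 128 FPKM, and COPS6 averaged 18.9. Among the receptors, FBXL14 (26.7), known for the turnover of the SNAIL repressor, FBXO5 (22.9), the inhibitor of the anaphase-promoting complex also called EMI1, KLHL36 (9.10) and FBXO4 (7.66) led, and the highest of the other roles were ASB11 (3.04), FBXW7 (2.02), the receptor for cyclin E and MYC, and DCAF15 (1.46).

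A row named FBXO32 was listed at a mean of 96.2 FPKM, but its identity is uncertain. It spans 319 bases (UMD3.1.1, chromosome 13, 82227724 to 82228042, minus strand), whereas the median row of the 107 spans 22793 bases, and RefSeq (ARS-UCD2.0) puts FBXO32, the muscle atrophy F-box protein, on another chromosome. In the 24 libraries its values amounted to a median of 191.5 steps of the smallest spacing, against 221 for COPS6 at a much lower FPKM. A step was taken to be a single read, which was not checked against read counts. DCAF16 was the only other of the 106 genes with a RefSeq entry whose row lay on another chromosome, with a span of 133 bases. Neither row was called in any comparison, and neither is read below as the level of the gene it is named after. COPS9, SKP1 and the row named FBXO32 together held a median of 54.9% of the summed FPKM of all 107 genes in spring GV, 61.6% in summer GV, 71.3% in spring MII and 73.6% in summer MII libraries. Among genes called below, the rows of FBXO4, FBXW7, FBXO48 and KLHL25 spanned 5.98%, 14.8%, 16.6% and 27.7% of the RefSeq gene. The other called genes spanned 89.3% or more, and FBXL14, not called, 17.6%. Whether the short rows miss part of a transcript was not tested.

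Every call among the ligase components came from the comparison of MII with GV oocytes. Genes were compared with limma on log2(FPKM + 1) and called at an unadjusted p under 0.05 with a fold change over 2. On that scale the fold is a log2 difference beyond 1, which understates the change of low genes. A gene under 1 FPKM in every library could not be called, whatever its change. Benjamini-Hochberg adjusted p values over all 9526 tested genes are given beside the calls. In spring, 10 of the 90 genes were called (11.1%), while 11.8% of all tested genes were. SKP1, FBXO5, FBXO4, FBXO48 and FBXW7 rose from GV to MII, and COPS6, COPS5, ASB6, FBXL15 and KLHL25 fell. In summer, 8 were called (8.89%, against 11.5% of all tested genes): SKP1, FBXO5, FBXO4 and SKP2 rose, and COPS6, COPS5, ASB6 and KLHL25 fell. The share of these genes that was called thus lay near or under that of all genes. By direction, 5.56% of the 90 genes were called higher and 5.56% lower in spring, against 3.57% and 8.25% of all tested genes, and 4.44% higher and 4.44% lower in summer, against 2.2% and 9.26%. The same 7 genes were called in both seasons in the same direction, which is 70% of the spring calls and 87.5% of the summer calls. By role, the calls of spring and summer comprised 1 and 2 of 2 SKP genes, 3 and 2 of 24 FBXO, 1 and 0 of 6 FBXW, 1 and 0 of 10 FBXL, 2 and 2 of 9 COPS, 1 and 1 of 21 KLHL and 1 and 1 of 6 ASB genes, and none of the 9 DCAF genes or 3 cullins. The median difference over the 90 genes was -0.01 in spring and 0.00 (-0.0042) in summer, against -0.03 and -0.02 over all tested genes.

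The counts rest on the added 1 FPKM. With 0.1 added instead, spring had 25 calls (27.8%) and summer 19 (21.1%), against 27.6% and 26.5% of all tested genes, and with nothing added the calls were 32 (35.6%) and 24 (26.7%), against 37.1% and 37.7%. None of the 18 calls above was lost under these smaller added values. After quantile normalization the 12 spring calls (13.3%, against 12.6% of all tested genes) were 8 higher and 4 lower. By adjusted p alone, with no demand on the fold, 20 genes passed in spring (9 higher and 11 lower in MII), against 24.2% of all tested genes (9.45% higher and 14.7% lower), and 20 in summer (8 higher, 12 lower), against 30.7% (7.67% higher and 23.1% lower). The spring and summer libraries are separate samples, and the 90 differences had the same sign in both seasons for 73 genes, with a Pearson correlation across genes of 0.93 that is a description only, since genes share their libraries.

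**Figure D2:**
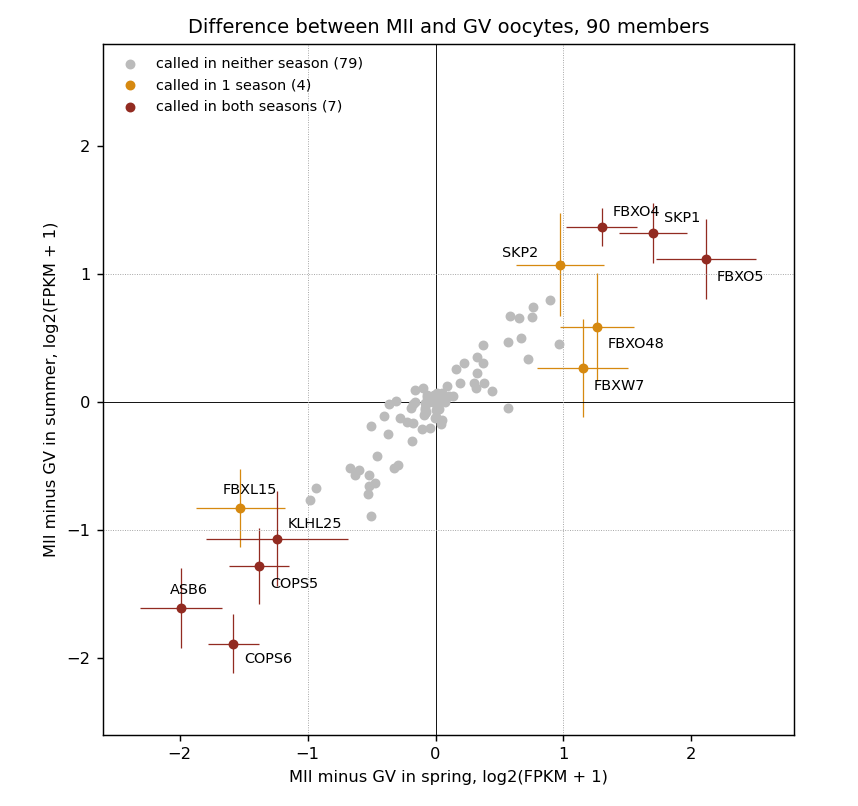
Difference between MII and GV oocytes on the log2(FPKM + 1) scale in spring (x axis) and in summer (y axis) for the 90 tested genes, with bars of 1 standard error on the called genes. Dotted lines mark a fold change of 2. The 7 genes called in both seasons lie in the outer corners, from -1.99 for ASB6 to 2.12 for FBXO5 in spring, and 79 genes were called in neither season.

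SKP1 rose from GV to MII in both seasons. Its FPKM in GV libraries of spring ranged from 24.1 to 62.1 (median 37.8) and in those of summer from 45.2 to 56.3 (median 49.5). MII libraries ranged from 101 to 185 (median 134) in spring and from 90.8 to 255 (median 107) in summer. Every MII library therefore lay above every GV library, in both seasons. The mean rose from 41.8 ± 15.7 to 133 ± 31.1 FPKM in spring (SD, n = 6 each; log2 difference 1.70, SE 0.27, limma adjusted p = 0.00084) and from 49.7 ± 3.86 to 135 ± 62.0 in summer (1.32, SE 0.24, adjusted p = 0.00119). Permuted exactly over all 924 ways of dividing the 12 libraries, the difference in mean log2(FPKM + 1) had p = 0.00216 in both seasons, two-sided, the smallest such a permutation can give. SKP1 is listed on chromosome 7, 47389342 to 47401413, minus strand (UMD3.1.1, as all positions below).

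Of the partners of SKP1 in the ligase, SKP2 was called in 1 season and CUL1 in neither. SKP2, the F-box protein that marks the inhibitor CDKN1B for removal (chromosome 20, 38077037 to 38116311, minus strand), had medians of 0.841 and 0.996 FPKM in spring and summer GV libraries and of 2.55 and 2.96 in MII libraries, with overlapping ranges. In summer it was called (log2 1.08, SE 0.40, unadjusted limma p = 0.0193, limma adjusted p = 0.0595, exact permutation p = 0.039). In spring the log2 difference of SKP2 was 0.97 (SE 0.34, adjusted p = 0.0548), and it passed the fold of 2 without GV replicate 6 (1.2) or MII replicate 1 (1.11), 2 (1.05) or 5 (1.01). The summer call was lost without GV replicate 1, 3 or 5 or MII replicate 4 or 6, with log2 differences of 1.0, 0.98, 0.97, 0.88 and 0.86. CUL1 ranged from 0.0549 to 0.450 FPKM in GV and from 0.0610 to 0.462 in MII libraries, and CUL2 and CUL3 overlapped between the stages as well. No cullin was called, nor could one be, since none exceeded 0.943 FPKM in any library and the call needed a log2(FPKM + 1) difference beyond 1. Their log2 differences lay between -0.20 (CUL3 in summer, SE 0.11) and 0.11 (CUL1 in spring, SE 0.05).

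FBXO5 had the largest rise of the F-box genes in spring and, after FBXO4, the next largest in summer. EMI1, its product, blocks the anaphase-promoting complex and so keeps cyclins from being destroyed. Its FPKM ran from 5.12 to 17.1 (median 6.87) in spring GV libraries and from 14.1 to 65.3 (median 44.4) in spring MII libraries. In summer the range was 6.73 to 15.2 (median 12.7) in GV and 16.1 to 50.4 (median 24.7) in MII libraries. The lowest spring MII library, the shallow replicate 6, lay below the highest spring GV library, while in summer the stages did not overlap. The log2 difference was 2.12 (SE 0.39, limma adjusted p = 0.00239, exact permutation p = 0.00433) in spring and 1.12 (SE 0.31, adjusted p = 0.0167, exact permutation p = 0.00216) in summer. In summer its fold came to just under 2 without GV replicate 4, MII replicate 1 or MII replicate 2 (log2 0.98, 0.99 and 0.93), with adjusted p of 0.0388, 0.0378 and 0.0339. FBXO5 is listed on chromosome 9, 91056766 to 91067423, minus strand.

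FBXO4, an F-box protein linked to the telomere protein TERF1 (chromosome 20, 32606041 to 32618896, minus strand), rose in both seasons as well. GV libraries ranged from 1.64 to 7.97 FPKM (median 3.94) in spring and from 3.06 to 4.53 (median 3.71) in summer, and MII libraries from 8.48 to 16.2 (median 10.9) and from 8.21 to 13.4 (median 11.6). All 12 MII libraries exceeded all 12 GV libraries. Its log2 difference was 1.30 (SE 0.28, adjusted p = 0.0053) in spring and 1.37 (SE 0.15, adjusted p = 4.31e-05) in summer.

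FBXO48 and FBXW7 were called in spring and not in summer. FBXO48 (chromosome 11, 66837190 to 66838230, minus strand) rose from a median of 0.932 FPKM in spring GV to 3.79 in spring MII libraries (log2 1.26, SE 0.29, adjusted p = 0.00818). In summer the medians were 1.35 and 2.51, and 3 of 6 MII libraries stayed at or below 1.17 (log2 0.59, SE 0.42, adjusted p = 0.313). FBXW7 (chromosome 17, 5298964 to 5332296, plus strand) went from a median of 0.596 to 2.06 in spring (log2 1.15, SE 0.35, adjusted p = 0.0321) and from 0.940 to 1.30 in summer (log2 0.27, SE 0.38, adjusted p = 0.63). The shallow spring MII replicate 6 was its highest library, at 10.8 FPKM; without it the spring log2 difference was 0.83 (adjusted p = 0.02), and without the 3 shallow libraries 1.0 (adjusted p = 0.000518), both just short of the fold of 2. The summer change less the spring change was -0.67 for FBXO48 (SE 0.52, unadjusted p = 0.211) and -0.88 for FBXW7 (SE 0.53, unadjusted p = 0.112), so a difference between the seasons was not called for either gene, though FBXW7 met the rule without summer MII replicate 6 (-1.14, adjusted p = 1).

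**Figure D3:**
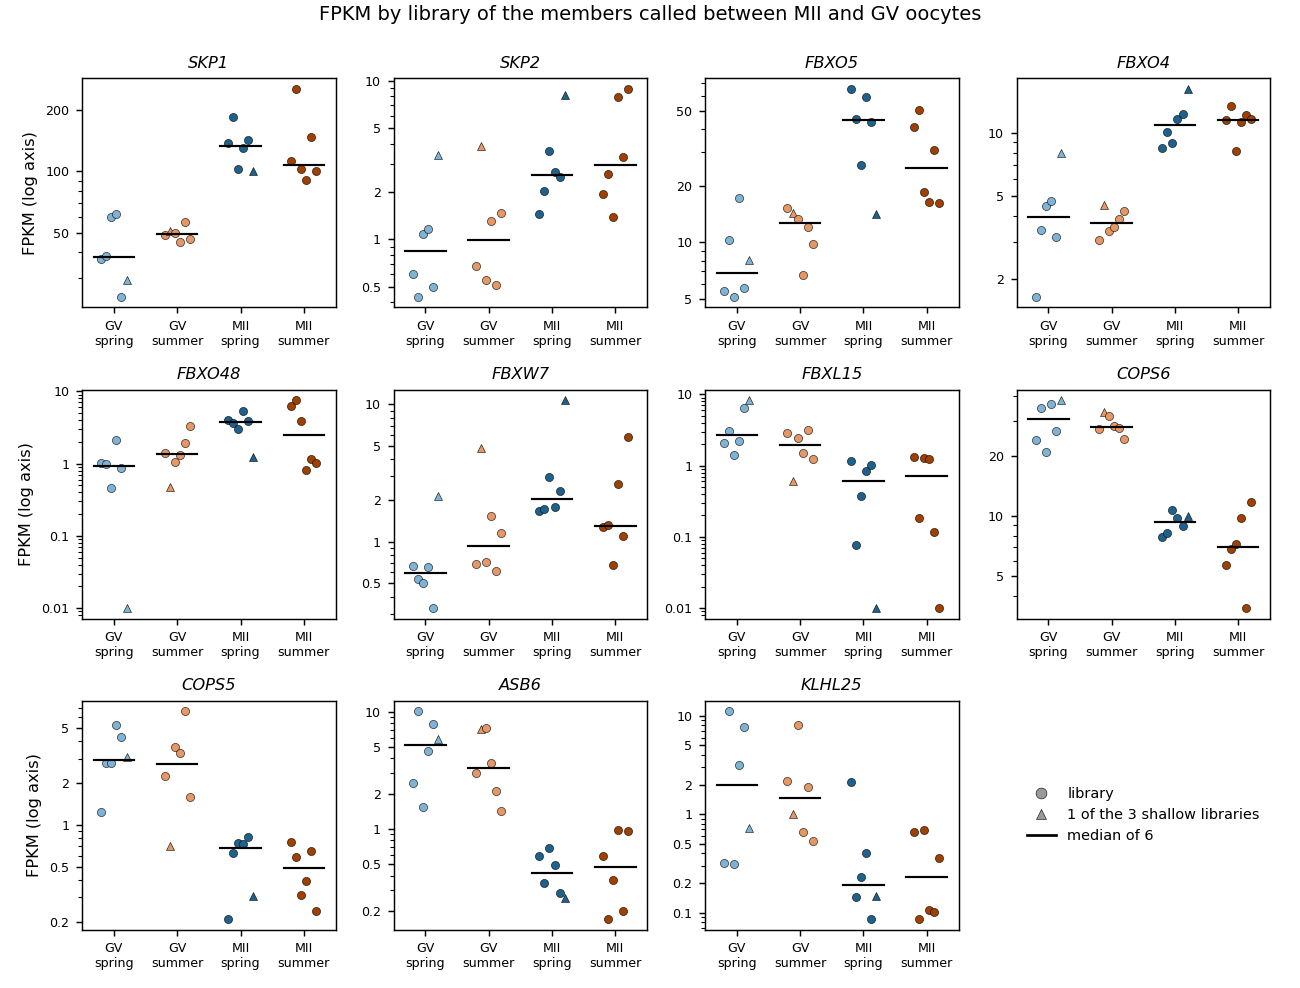
FPKM (log axis) in every library of the 11 genes with a stage difference called in at least 1 season, in the 4 groups of 6 libraries. Circles are libraries, triangles the 3 shallow ones, and lines the group medians. MII libraries of SKP1 and FBXO4 lie wholly above GV libraries, and MII libraries of COPS6 and ASB6 wholly below them, in both seasons.

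Other F-box genes changed by less than 2-fold on the log2(FPKM + 1) scale; those named here, other than FBXO30, were chosen after their values were seen. FBXO45, FBXO30 and FBXO36 passed adjusted p under 0.05 in spring, FBXO8, FBXO9, FBXL4, FBXL8 and FBXW5 in summer, and FBXL22 and FBXW9 in both seasons. FBXO36 (log2 -0.08 in spring) exceeded the 0.1 FPKM needed for testing in GV libraries alone, and its MII libraries reached at most 0.0769. Its lower MII level is therefore not read as a result. FBXO45, a receptor that works with the ligase MYCBP2, ranged from 0.01 to 0.788 FPKM in spring GV and from 1.32 to 2.62 in spring MII libraries, without overlap (log2 0.97, SE 0.18, adjusted p = 0.00269). FBXO30 went from a median of 1.91 to 3.71 in spring (log2 0.73, SE 0.20, adjusted p = 0.0199). FBXO45 passed the fold of 2 without spring GV replicate 2 (1.03) or 4 (1.05) or MII replicate 3 (1.0). FBXL4, which restrains mitophagy, went from 0.496 to 1.68 in summer (log2 0.67, SE 0.23, adjusted p = 0.0451).

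Several low receptors ran the other way. FBXW9 was at 0.01 in 3 of 6 spring and 5 of 6 summer MII libraries, whereas GV libraries ranged from 0.153 to 1.55 FPKM (log2 -0.60, adjusted p = 0.0171 in spring; -0.53, adjusted p = 0.00297 in summer). FBXL22 had GV medians of 0.464 and 0.450 and MII medians of 0.0920 and 0.0411 (log2 -0.46, adjusted p = 0.00212, and -0.42, adjusted p = 0.00666). The ratios of the group means of these genes were larger than the log2 values convey: MII over GV, it was 0.0988 in spring and 0.0271 in summer for FBXW9 and 0.193 and 0.161 for FBXL22.

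FBXL15, a receptor for the ubiquitin ligase SMURF1 (chromosome 26, 22917659 to 22919708, plus strand), fell in spring. Its GV libraries ranged from 1.40 to 8.33 FPKM (median 2.67) and its MII libraries from 0.01 to 1.18 (median 0.614), without overlap (log2 -1.53, SE 0.35, adjusted p = 0.00754, exact permutation p = 0.00216). In summer GV libraries ranged from 0.609 to 3.18 and MII libraries from 0.01 to 1.33 (log2 -0.83, SE 0.31, adjusted p = 0.0573), and it was not called. FBXL14 was too variable for a difference to be resolved: its libraries ranged from 8.50 to 102 FPKM in GV and from 7.69 to 83.3 in MII oocytes (log2 -0.28, SE 0.63 in spring; -0.13, SE 0.55 in summer), and the sign turned without the shallow GV library of either season (0.16 and 0.29).

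Of the 9 COPS genes, 2 were called lower in each season, as were 8.25% of all tested genes in spring and 9.26% in summer, and none was called higher, as were 3.57% and 2.2%. The median of the 9 log2 differences was -0.52 in spring and -0.57 in summer. COPS5, the subunit that cuts NEDD8 off cullins, and COPS6, its catalytically silent partner, both fell. COPS6 (chromosome 25, 36893605 to 36896371, minus strand) ranged from 21.1 to 38.2 FPKM (median 30.7) in spring GV and from 7.84 to 10.7 (median 9.37) in spring MII libraries. In summer it ranged from 24.4 to 33.2 (median 28.0) in GV and from 3.46 to 11.8 (median 7.03) in MII libraries. No MII library reached any GV library. The mean fell from 30.2 ± 7.17 to 9.26 ± 1.11 FPKM in spring (log2 -1.58, SE 0.20, adjusted p = 0.000239) and from 28.8 ± 3.17 to 7.48 ± 2.97 in summer (log2 -1.89, SE 0.23, adjusted p = 9.44e-05).

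COPS5 (chromosome 14, 33207509 to 33226918, minus strand) was lower in level and fell to a smaller fraction of its GV mean (ratio of means 0.177 in spring and 0.162 in summer, against 0.306 and 0.259 for COPS6). GV libraries ranged from 1.23 to 5.21 FPKM (median 2.95) in spring and from 0.705 to 6.59 (median 2.75) in summer. MII libraries ranged from 0.208 to 0.813 (median 0.677) and from 0.239 to 0.746 (median 0.491). The stages did not overlap in spring (log2 -1.38, SE 0.23, adjusted p = 0.00147); in summer 1 MII library exceeded the lowest GV library, the shallow replicate 2 (log2 -1.28, SE 0.30, adjusted p = 0.00637).

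The other subunits differed by less than 2-fold on the log2(FPKM + 1) scale. COPS4 passed adjusted p under 0.05 in spring alone (median 3.66 in GV and 2.13 FPKM in MII libraries, log2 -0.63, SE 0.21, adjusted p = 0.0475; in summer log2 -0.57, adjusted p = 0.0619). COPS3 had GV medians of 2.78 and 2.89 and MII medians of 1.43 and 1.35 (log2 -0.52 and -0.65, adjusted p = 0.144 and 0.0931). COPS7A and COPS7B, alternative versions of a subunit, COPS2 and COPS8 overlapped between the stages, with log2 differences from -0.72 (COPS7A in summer, SE 0.49) to 0.26 (COPS8 in summer, SE 0.27). COPS9 had medians of 57.1 and 92.2 FPKM in GV and of 125 and 144 in MII libraries, with overlapping ranges, and was not called (log2 0.89, SE 0.37, adjusted p = 0.0901 in spring; 0.80, SE 0.39, adjusted p = 0.135 in summer). It met the call rule in spring without GV replicate 1 (1.05) or 6 (1.12) or MII replicate 1 (1.03), and in summer without the shallow GV replicate 2 (1.05, adjusted p = 0.0303).

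The ratio of COPS9 to COPS6 FPKM inside a library ranged from 1.32 to 6.77 over the 12 GV libraries and from 10.1 to 43.6 over the 12 MII libraries. It does not depend on how a library was scaled. COPS6 alone also separated the stages completely (21.1 to 38.2 FPKM in GV and 3.46 to 11.8 in MII libraries). The separation by the ratio thus shows no change of COPS9, which was not called. This ratio was formed after the values had been seen and was given no test.

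**Figure D4:**
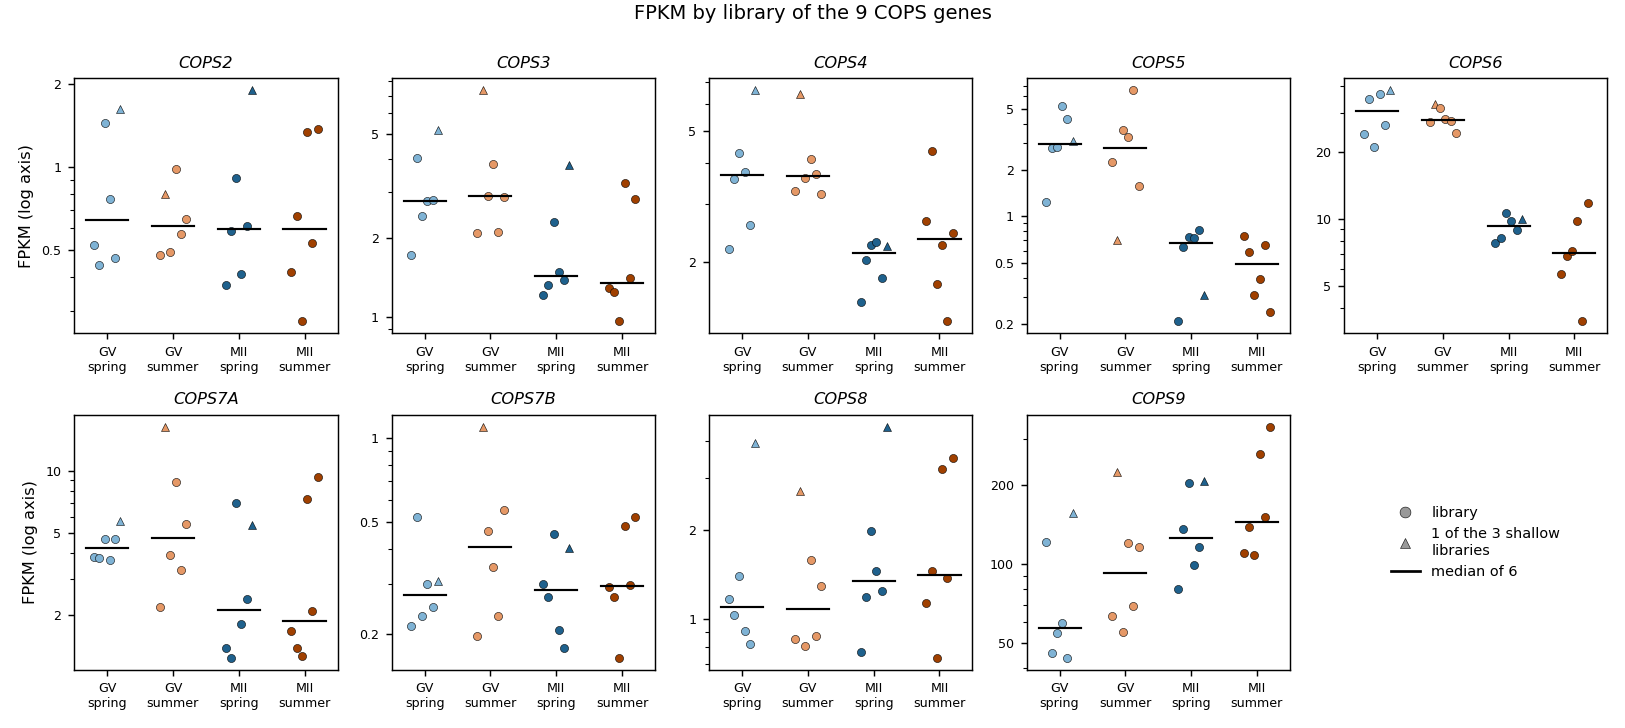
FPKM (log axis) of the 9 COPS genes in every library of the 4 groups; circles are libraries, triangles the 3 shallow ones and lines the group medians. COPS6 falls from medians of 30.7 and 28.0 in GV to 9.37 and 7.03 in MII oocytes and COPS5 from 2.95 and 2.75 to 0.677 and 0.491, while COPS9 has higher medians in MII oocytes and COPS2, COPS7B and COPS8 overlap throughout.

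Of the ASB genes, ASB6 fell most (chromosome 11, 100052124 to 100057353, minus strand). Its FPKM ranged from 1.55 to 10.1 (median 5.25) in spring GV and from 0.257 to 0.686 (median 0.418) in spring MII libraries. The summer ranges were 1.43 to 7.31 (median 3.33) and 0.170 to 0.983 (median 0.474). All GV libraries lay above all MII libraries in both seasons. The log2 difference was -1.99 (SE 0.32, adjusted p = 0.00103) in spring and -1.61 (SE 0.31, adjusted p = 0.00195) in summer, and the MII mean was 0.0816 and 0.132 times the GV mean. ASB11, the most abundant of the family, had higher medians in MII (2.41 and 2.95 FPKM) than in GV libraries (1.24 and 1.39) but was not called (log2 0.75, adjusted p = 0.184; 0.67, adjusted p = 0.0968), except in spring without the shallow GV replicate 6 (1.01, adjusted p = 0.0483). ASB16, chosen after its values were seen, was higher in MII libraries by adjusted p in both seasons at a low level (medians 0.0643 to 0.226 and 0.0856 to 0.315; adjusted p = 0.0187 and 0.0173).

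KLHL25, a CUL3 receptor for the translation repressor EIF4EBP1 (chromosome 21, 16946194 to 16960420, minus strand), was called in both seasons, but its libraries were widely scattered. Spring GV libraries ranged from 0.310 to 11.2 FPKM (median 1.96) and spring MII libraries from 0.0859 to 2.10 (median 0.189), with overlap. The spring difference (log2 -1.24, SE 0.56, unadjusted p = 0.0443, adjusted p = 0.118, exact permutation p = 0.0671) was lost in 13 of 24 alternatives, among them each of 8 in which a single library was left out: GV replicates 2, 4 and 5 (log2 -0.86, -1.17 and -0.96) and MII replicates 2, 3, 4, 5 and 6 (log2 -1.18, -1.20, -1.24, -1.16 and -1.18), with unadjusted limma p from 0.0637 to 0.105. Summer GV libraries ranged from 0.538 to 7.97 (median 1.46) and MII libraries from 0.0855 to 0.688 (median 0.233; log2 -1.07, SE 0.37, adjusted p = 0.0455). Without summer GV replicate 3, which held the highest value, the log2 difference was -0.73 (adjusted p = 0.0355).

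The other KLHL genes were not called. By adjusted p, chosen after their values were seen, KLHL20 was higher in MII libraries in both seasons (medians 0.103 to 0.254 and 0.136 to 0.265 FPKM, adjusted p = 0.0431 and 0.0411), KLHL7 was higher in summer (0.766 to 1.37, adjusted p = 0.0445), KLHL35 (1.35 to 0.394, adjusted p = 0.0315) and KLHL40 (0.233 to 0.0386, adjusted p = 0.0327) were lower in spring, and KLHL9, which with KLHL21 acts on Aurora B, was lower in summer (3.45 to 1.07, adjusted p = 0.00788). KLHL35 (log2 -0.98) passed the fold of 2 without any 1 of spring GV replicates 1, 3 and 6 and MII replicates 1, 2 and 4 (-1.14 to -1.01), and KLHL9 (log2 -0.89) without summer MII replicate 4 (-1.05). KLHL36, the most abundant, ranged from 3.00 to 30.9 FPKM in GV and from 1.72 to 21.1 in MII libraries (log2 -0.37, SE 0.57; -0.25, SE 0.41). No DCAF gene was called. DCAF15, through which sulfonamide degraders act, had GV medians of 1.71 and 1.57 and MII medians of 1.10 and 0.909 FPKM (log2 -0.29, adjusted p = 0.382; -0.49, adjusted p = 0.125), and DCAF11 in spring (0.206 to 0.0347, adjusted p = 0.00618) and DCAF4 in summer (0.0664 to 0.0168, adjusted p = 0.00148) were lower in MII libraries without overlap. In all, MII and GV libraries did not overlap for 10 of the 90 genes in spring and 7 in summer, against 13.6% and 17.7% of all tested genes.

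Genes of the same system outside the symbol rule were counted from a list of neddylation and cullin assembly factors, with 17 tested entries for 19 symbols (RBX1 is listed at 2 loci), and a list of further linkers and receptors, with 50 tested entries for 71 symbols. In the first list 1 gene was called higher and 2 lower in spring, and 2 higher and 2 lower in summer, with median differences of -0.01 and -0.09; these are 17.6% and 23.5% of its entries, against 11.8% and 11.5% of all tested genes. NEDD8 itself fell from 327 ± 84.0 to 97.1 ± 35.4 FPKM in spring and from 363 ± 61.7 to 109 ± 28.3 in summer (SD, n = 6; log2 -1.78 and -1.75, adjusted p = 0.000477 and 6.14e-05). GPS1, the subunit of the COP9 signalosome outside the COPS symbols, fell as COPS5 and COPS6 did (2.28 to 0.425 and 2.90 to 0.463 FPKM; log2 -1.20 and -1.32, adjusted p = 0.00434 and 0.00479). NAE1, part of the enzyme that activates NEDD8, rose (3.24 to 8.90 and 3.43 to 9.44, log2 1.22 and 1.14, adjusted p = 0.00468 and 0.0122). RNF7, the RING partner of CUL5, rose in summer (2.44 to 5.67, log2 1.02, adjusted p = 0.00308). By adjusted p under 0.05 with no demand on the fold, 1 entry of the first list was higher and 6 lower in spring. In summer 2 were higher and 3 lower. Among those lower but not called, chosen after their values were seen, were UBE2F in both seasons (log2 -0.72 and -0.56, adjusted p = 0.0277 and 0.00672) and the abundant RBX1 entry in spring (205 to 114 FPKM, log2 -0.82, adjusted p = 0.0169).

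In the second list 1 gene was called higher and 3 lower in spring, and 1 each way in summer, with median differences of 0.04 and 0.00 (0.0037); these are 8% and 4% of its entries, under the 11.8% and 11.5% of all tested genes. The elongins, which link SOCS-box receptors such as the ASB proteins to their cullins, parted: elongin C, listed as TCEB1, was called higher in summer (14.3 ± 1.48 to 33.7 ± 2.34 FPKM, log2 1.19, adjusted p = 4.98e-05; in spring log2 0.74, adjusted p = 0.0444), and elongin B, listed as TCEB2, lower in spring (12.6 ± 5.72 to 5.07 ± 2.71, log2 -1.20, unadjusted p = 0.0155, adjusted p = 0.0587; in summer log2 -0.90, adjusted p = 0.0114). SPSB3, a SOCS-box receptor, was called lower in both seasons (log2 -1.79 and -1.82, adjusted p = 0.0339 and 0.00197). KBTBD2, a CUL3 receptor, was called higher in spring (log2 1.31, adjusted p = 0.0208) and SPSB2 lower (log2 -1.03, unadjusted p = 0.0304, adjusted p = 0.0918). These examples were named after their values were seen.

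The question of the study was whether summer heat alters the oocyte, so summer was set against spring at each stage. No ligase component was called in GV oocytes, where 0.0315% of all tested genes were, or in MII oocytes, where 0.042% were, and none had an adjusted p under 0.05. The paper, by another test with the same p and fold thresholds, names FBXO44 among the genes affected by heat at both stages. At an unadjusted limma p under 0.05 without a fold threshold there was 1 gene in GV (1.55% of all tested genes) and 1 in MII oocytes (2.11%). No gene's summer libraries lay wholly apart from its spring libraries, which 0.178% of all tested genes did at either stage. The 90 log2 differences ranged from -0.63 (FBXL15, SE 0.36, unadjusted p = 0.105) to 0.49 (FBXO5, SE 0.30, unadjusted p = 0.121) in GV oocytes and from -0.51 (FBXO5, SE 0.41, unadjusted p = 0.237) to 0.34 (COPS9, SE 0.34, unadjusted p = 0.334) in MII oocytes, with median SE of 0.20 and 0.13. Since a SE of 0.3 or 0.4 leaves room for sizeable differences, these results do not show that the seasons were alike.

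**Figure D5:**
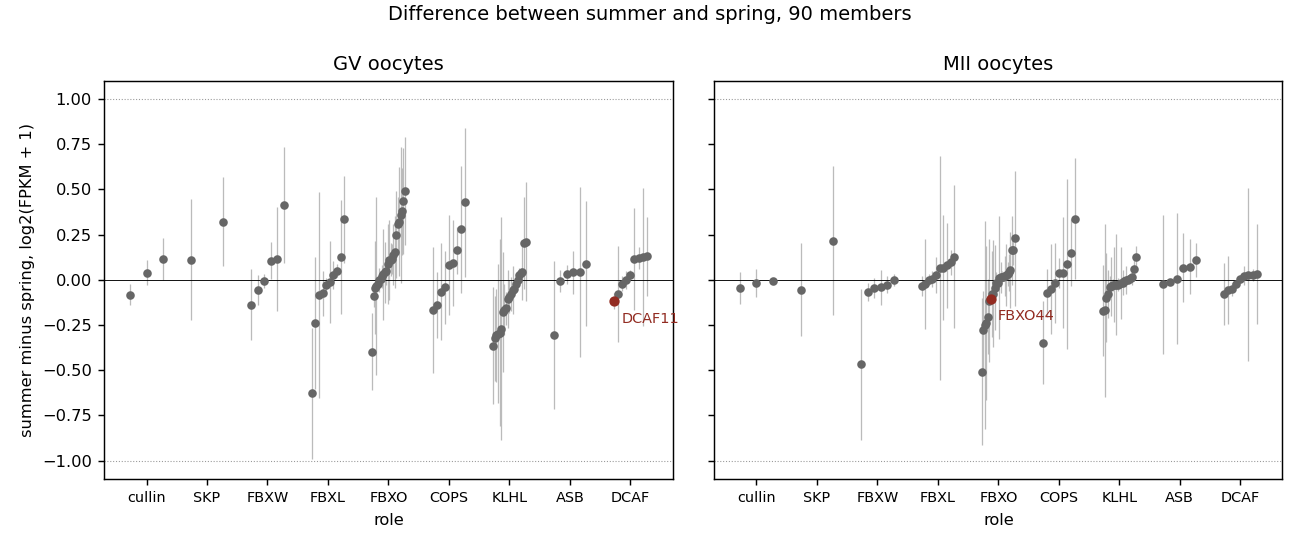
Difference between summer and spring on the log2(FPKM + 1) scale for the 90 tested genes by role, in GV oocytes (left) and MII oocytes (right), with bars of 1 standard error. Dotted lines mark a fold change of 2 on that scale, which no gene reached there. The scale understates the change of low genes. In GV oocytes the ratio of group means, summer over spring, was 0.211 for FBXO44 and 2.65 for FBXL20. The genes with an unadjusted p under 0.05, DCAF11 in GV and FBXO44 in MII oocytes, are named.

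The 2 genes with an unadjusted limma p under 0.05 were both near the lower limit of the table. FBXO44, an F-box protein of the family that recognises glycoproteins, ranged from 0.0692 to 0.169 FPKM (median 0.109) in spring MII libraries, while 4 of 6 summer MII libraries stood at 0.01 and the highest reached 0.135 (log2 -0.10, SE 0.03, adjusted p = 1, exact permutation p = 0.0152). In GV oocytes its medians were 0.311 in spring and 0.0862 in summer, with the highest spring value, 2.11, in the shallow replicate 6 (log2 -0.40, SE 0.21, unadjusted p = 0.085, exact permutation p = 0.0606). Its values corresponded to a median of 3 steps per library, so most of its libraries rest on a few reads if a step is a single read. On log2 of the listed value with nothing added, FBXO44 was lower in summer by -2.55 in GV and -2.48 in MII oocytes (unadjusted p = 0.0255 and 0.00215, adjusted p = 1), and it was called at both stages.

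DCAF11 ranged from 0.0954 to 0.291 FPKM (median 0.206) in spring GV and from 0.0560 to 0.124 (median 0.103) in summer GV libraries (log2 -0.12, SE 0.04, unadjusted p = 0.0204, exact permutation p = 0.0281), with a median of 4 steps per library. The libraries of the 2 seasons overlapped. In MII oocytes its medians were 0.0347 and 0.0339 (log2 0.03, SE 0.03). DCAF11 was chosen after its values were seen. Exact permutation of the group means of log2(FPKM + 1) was run between seasons for 56 of the genes, unadjusted for their number. They were the genes named by rule and those with an unadjusted limma p under 0.05 in any comparison, the season comparisons included. Exact permutation p was under 0.05 for 4 in GV oocytes and for FBXO44 alone in MII oocytes. It was not run for all genes, so no share of all genes stands beside these counts. Beside DCAF11 the 4 in GV oocytes were CUL2, FBXL20 and FBXO45, the last 2 chosen after their values were seen. CUL2 ranged from 0.0316 to 0.368 FPKM (median 0.0441) in spring GV and from 0.0237 to 0.0393 (median 0.0297) in summer GV libraries, with overlap and with its highest value in the shallow spring replicate 6 (exact permutation p = 0.0108, limma p = 0.195). Only that library brought CUL2 over the 0.1 FPKM needed for testing, and no other library of any group exceeded 0.0541. Its p values are therefore not read as a season difference. FBXL20 had medians of 0.0254 in spring and 0.0365 in summer (exact permutation p = 0.0303, limma p = 0.174), and FBXO45 of 0.303 and 0.728 (exact permutation p = 0.0476, limma p = 0.055). Each of these 3 had an adjusted limma p of 1.

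Neither SKP1 nor FBXO5, which rose most between the stages in spring, was called between the seasons. SKP1 had a log2 difference of 0.32 (SE 0.25, unadjusted p = 0.211) in GV and -0.05 (SE 0.26, unadjusted p = 0.837) in MII oocytes. FBXO5 leaned one way in GV oocytes (mean 8.64 ± 4.59 in spring and 11.9 ± 3.14 FPKM in summer) and the other way in MII oocytes (42.2 ± 19.5 and 28.9 ± 14.4), with overlapping libraries at both stages.

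Whether the change from GV to MII itself differed between spring and summer was tested as an interaction over all 4 groups. No ligase component was called, as against 0.21% of all tested genes, and 2 had an unadjusted limma p under 0.05 (1.8% of all tested genes; no gene of the table had an adjusted p under 0.05). These were DCAF11 (0.15, SE 0.06, unadjusted p = 0.0143) and FBXO40, the muscle receptor for IRS1, named after their values were seen. FBXO40 had medians of 0.135 and 0.0283 FPKM in spring GV and MII libraries and of 0.0809 and 0.126 in those of summer (0.25, SE 0.10, unadjusted p = 0.02). The largest difference was that of FBXO5, whose rise was smaller in summer by 1.0 on the log2 scale (SE 0.51, unadjusted p = 0.0628, adjusted p = 1). Without the 3 shallow libraries it was -1.22 (unadjusted p = 0.0237, adjusted p = 1) and met the call rule, as it did without any 1 of spring GV replicate 4 (-1.20), summer GV replicate 4 (-1.14), spring MII replicate 3 (-1.11) or 6 (-1.27), or summer MII replicate 1 (-1.13) or 2 (-1.18).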

How the data were processed

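RNA-seq was performed on 24 libraries of bovine GV and MII oocytes of May and July, 6 per group, taken from the sample labels. The methods describe libraries of 4 pooled oocytes, each pool from 1 cow, whereas the sample labels speak of single cells. Nothing in the labels says which pools are from separate animals across groups, so p values measure only the spread between these libraries. Per the labels, reads were checked with FastQC, aligned to UMD3.1 with STAR 2.5.3a and quantified in Partek; the table's coordinates are those of UMD3.1.1. The deposited values are FPKM, which the authors calculated per gene. That each library was scaled to a common total (86768) and that 0.01 was added or set as the minimum is read from the values. Read depth was estimated here only as relative depth from the spacing of low values, and no counting interval is given. The paper states an approximate read number per sample, with which these relative depths were not compared. No replicate pair held identical values.

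Genes over 0.1 FPKM in at least 1 library (9526 of 11306) were tested as log2(FPKM + 1) with limma 3.58.1 in R 4.3.3, with mean-dependent moderation, using only the groups compared, or all 4 groups for the season difference. A call needed an unadjusted p under 0.05 and a fold over 2 on that scale. The p values were adjusted by Benjamini-Hochberg over all tested genes. Exact two-sided permutation tests on group means of log2(FPKM + 1), values and figures used Python 3.11.15 with numpy 2.4.6, pandas 2.3.3, scipy 1.17.1 and matplotlib 3.10.9. The fit was tested on simulated data. The genes described and the gene lists were chosen with earlier results of these data known. The genes to be named were those called between seasons, those called between stages in both seasons and the 3 of smallest p among those called in 1 season, the most abundant of each role and a fixed set of cullin, COP9, F-box and DCAF genes; others are stated to have been chosen after their values were seen. Alternatives were smaller added values, other filters, scalings and fits, a replicate block and leaving out each library. No sequence was printed, since none was used here. RefSeq gene names (ARS-UCD2.0) matched 106 of 107 symbols and were used for names, chromosomes and spans alone.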

Additional observations from a re-analysis of the deposited data

Results flagged for a closer look

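In 112 groups of 6 libraries of the genes named by rule, 18 held a highest or lowest library that stood apart from the other 5 by more than Dixon's 95% limit; chance gives about 1 in 20. Of these 18, 17 were highest values and 14 lay in the 3 shallow libraries, whose depth relative to spring GV replicate 1 was 0.0565, 0.149 and 0.393. Spring GV replicate 6 stood highest for ASB11 (5.43 FPKM), COPS8 (3.93), CUL2 (0.368), FBXL14 (101.8), FBXO44 (2.11), FBXW7 (2.16) and SKP2 (3.40). Summer GV replicate 2 stood highest for ASB11 (5.64), COPS4 (6.45), CUL1 (0.450), the row named FBXO32 (199.1) and FBXW7 (4.85). Spring MII replicate 6 stood highest for the row named FBXO32 (355) and FBXW7 (10.8). The remaining 4 were COPS7B in spring GV replicate 2 (0.520, highest), FBXO44 in summer MII replicate 4 (0.135, highest), KLHL25 in spring MII replicate 1 (2.10, highest) and FBXO4 in summer MII replicate 3 (8.21, the lowest of its group). The call of FBXW7 in spring was lost without spring MII replicate 6 (log2 0.83). Without all 3 shallow libraries, the calls lost were FBXW7 (1.0) and KLHL25 (-1.37, limma adjusted p = 0.108), both in spring. Whether low depth produced these values was not tested.

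The change from GV to MII differed between spring and summer at an unadjusted limma p under 0.05 for DCAF11 (0.147 on the log2(FPKM + 1) scale, unadjusted p = 0.0143) and FBXO40 (0.255, unadjusted p = 0.02), both with an adjusted p of 1. Both genes had a median of 4 steps of the smallest spacing per library.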

How the results depend on the processing

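Of 2655 alternative values of 110 reported differences, 37 changed sign, none of them of a called difference. After quantile normalization these were COPS2 (0.013), COPS7B (0.074) and CUL3 (0.043) from GV to MII in spring and COPS7B (0.031), CUL2 (0.024), FBXL14 (0.14), KLHL36 (0.073) and the row named FBXO32 (0.067) in summer. Without the 3 shallow libraries they were FBXL14 (0.29) and the row named FBXO32 (0.21) in summer; by ratio of means that row (0.19) and SKP1 between seasons in MII oocytes (0.014), and by median-of-ratios scaling SKP1 again (0.026). Leaving out each library in turn, the sign turned within these ranges: SKP1 (-0.26 to 0.047) and DCAF11 (-0.0024 to 0.039) between seasons in MII oocytes, COPS2 (-0.22 to 0.038), COPS7B (-0.033 to 0.044), COPS8 (-0.053 to 0.37) and FBXL14 (-0.71 to 0.16) from GV to MII in spring, and COPS2 (-0.040 to 0.14), CUL1 (-0.017 to 0.12), KLHL36 (-0.37 to 0.026), FBXL14 (-0.42 to 0.29) and the row named FBXO32 (-0.39 to 0.25) in summer. The numbers of called genes depended on the value added before the logarithm. With 0.1 added, none added, or the ratio of group means as the fold, 25, 32 and 28 genes were called between MII and GV oocytes in spring (10 with 1 added) and 19, 24 and 26 in summer (8), while 27.6%, 37.1% and 33.8% of all genes were called in spring and 26.5%, 37.7% and 35% in summer. The same 3 settings gave 1 (FBXO44), 2 (FBXO44, KLHL17) and 1 (DCAF11) between seasons in GV oocytes (0.388%, 1.22% and 0.588% of all genes), and none added and the ratio of means gave 1 each (FBXO44) in MII oocytes (1.07% and 0.735%); at either stage none was called with 1 added. For the season difference 2 (FBXO40, FBXO45) and 3 (DCAF11, FBXO45, KLHL17) were called with 0.1 and none added (1.01% and 2.01% of all genes), and 1 (FBXO5) without the 3 shallow libraries (0.22%), against 0. In spring the split of higher and lower calls, 5 and 5, became 8 and 4 after quantile normalization and 5 and 7 after median-of-ratios scaling. Leaving out each library in turn gave 8 to 14 calls in spring, 6 to 9 in summer, 0 to 0 between seasons at either stage and 0 to 1 for the season difference.

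The calls of COPS6, COPS5, ASB6, SKP1 and FBXO4 in both seasons, and of FBXO5, FBXO48 and FBXL15 in spring, were kept in all 24 alternatives run for each. FBXL8, at -0.93 in spring, met the call rule without GV replicate 1 (-1.04) or 3 (-1.13). Of the other calls, KLHL25 was also lost in spring without a filter (unadjusted p = 0.0546) and after quantile normalization (-1.04 in spring, -0.89 in summer). Replicate numbers were not taken to pair the libraries, since in each comparison at least 1 same-numbered pair correlated below 0. Between stages, 2 of 6 libraries correlated best with their own number in spring (r from -0.17 to 0.54) and 1 of 6 in summer (-0.28 to 0.65). Between seasons it was 1 of 6 in GV oocytes (-0.32 to 0.44) and 4 of 6 in MII oocytes (-0.44 to 0.76), a hint from the data that some numbers there may be shared. With the replicate number as a block, 9 genes were called in spring (KLHL25 lost, limma adjusted p = 0.146), 8 in summer and 0 in each season comparison and the season difference. The single fit over all 4 groups and the ratio of means were not run for the season difference. Low values limit FBXO44, DCAF11, FBXO40 and FBXW9, at medians of 3, 4, 4 and 4.5 steps, where a step was taken to be a single read. In all, 20 of 72 tested genes with a solved step had a median of at most 10.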
